A study of Homo sapiens with 8 samples.

Results

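The aminoacyl-tRNA synthetases are the enzymes that attach each amino acid to its transfer RNA, and 35 of their genes were followed in SW1990 cells, an established line of pancreatic ductal cancer. The members were taken by symbol, 19 of the cytosolic and 16 of the mitochondrial enzymes, out of 60483 genes in the deposited count table. All 35 passed the filter on low counts, which left 16417 genes in the tests. Symbols follow the current names, in which the cytosolic enzymes end in 1 (AARS1, formerly AARS) and the mitochondrial ones in 2. FARSA and FARSB encode the subunits of the cytosolic phenylalanine enzyme.

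The sample titles describe all libraries as side population, which means cells sorted for pumping out a dye that stains DNA. They divide them into control cells and cells with CRISPR knockdown of PAF1, part of a complex of the same name that travels with elongating RNA polymerase II. These titles name no guide, clone or culture time. Each group held 2 libraries, each read on 2 lanes that the labels call technical replicates, and the lanes were summed. In each group the column name of 1 library starts with SP and that of the other does not, for no stated reason. Both SP-prefixed names also carry P3, and only the name of the unprefixed control lacks the word CRISPR. The prefix therefore cannot be told apart from P3 or, between the controls, from that word. Each library, though titled side population, is called by its group and by whether it is SP-prefixed. The words knockdown-labelled are kept for the group called PAF1 CRISPR KD, and within each group the unprefixed library is given first. Separate cultures are not stated for the libraries, so every p-value measures only how far these libraries spread, which may be technical.

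The 4 libraries held 17234973 to 22348416 counts. Epithelial keratins and EPCAM were present in all of them, with a summed level of 5048 to 6194 CPM (counts scaled by the TMM-normalised library size) over the 5 ductal markers, against 33.5 to 41.7 CPM for fibroblast, 0.316 to 2.78 CPM for leukocyte and 23.8 to 29.8 CPM for endothelial markers. Most of the fibroblast sum came from COL1A1 alone, at 29.8 to 37.9 CPM, and most of the endothelial sum from CDH5 alone, at 20.7 to 27.4 CPM. PAF1 mRNA was at 55.2 and 43.9 CPM in the controls versus 41.7 and 44.4 CPM in the knockdown-labelled libraries. The targeted mRNA was thus below both controls in 1 of the 2 knockdown-labelled libraries and did not set the groups apart (log2 fold change -0.20 ± 0.16 SE, edgeR, Benjamini-Hochberg adjusted p = 0.663), so every direction below rests on the labels.

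Each synthetase recognises its amino acid and its transfer RNAs, and the charged transfer RNAs then supply the ribosome. The cytosolic and the mitochondrial ribosome draw on separate sets of enzymes, all encoded in the nucleus, although GARS1 and KARS1 each make both forms and EPRS1 joins the glutamate and proline enzymes in 1 protein. When amino acids run short, uncharged transfer RNAs activate the kinase GCN2, which raises translation of the transcription factor ATF4. In mammalian cells ATF4 is known to raise transcription of many cytosolic synthetases, of amino acid transporters and of enzymes that make serine, cysteine and asparagine, through a composite C/EBP-ATF element in their promoters.

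Promoter sequence is shown first because the members differed in it as well as in level, although these did not line up gene by gene. RefSeq promoters on GRCh38.p14, from 250 bases before to 50 after each start site, were found for 16 cytosolic and 14 mitochondrial members. LARS1, VARS1, YARS1, AARS2 and VARS2 were not among them. The element was searched as TGATGNAA on both strands (TTNCATCA on the other). It was present in the promoters of 7 of the 16 cytosolic genes (43.8%) and 1 of the 14 mitochondrial genes (7.14%), against 1217 of 27305 genes (4.46%) overall. Of the 31 listed ATF4 target genes outside the synthetases, 25 had a promoter in the table and 8 of these (32.0%) held the element. The stretches with the match in capitals, read along the strand of the gene and with up to 40 bases on either side, are these:
AARS1: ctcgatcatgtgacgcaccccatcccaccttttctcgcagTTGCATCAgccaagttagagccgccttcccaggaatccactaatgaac
CARS1: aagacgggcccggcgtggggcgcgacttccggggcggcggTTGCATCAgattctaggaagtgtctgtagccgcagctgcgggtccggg
GARS1: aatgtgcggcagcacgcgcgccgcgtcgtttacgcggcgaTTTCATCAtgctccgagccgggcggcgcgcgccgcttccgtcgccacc
MARS1: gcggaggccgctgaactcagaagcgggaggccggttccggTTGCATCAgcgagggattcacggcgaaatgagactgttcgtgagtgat
TARS1: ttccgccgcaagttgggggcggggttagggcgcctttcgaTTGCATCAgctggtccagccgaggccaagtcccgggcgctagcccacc
IARS1: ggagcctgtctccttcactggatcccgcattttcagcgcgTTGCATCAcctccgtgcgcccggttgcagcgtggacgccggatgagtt
NARS1: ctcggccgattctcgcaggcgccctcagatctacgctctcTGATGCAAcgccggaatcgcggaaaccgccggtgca
YARS2: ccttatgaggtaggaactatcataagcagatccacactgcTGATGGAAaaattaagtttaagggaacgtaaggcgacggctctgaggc
These stretches lie at chr16:70289646-70289733 on the minus strand for AARS1, chr11:3057378-3057465 on the minus strand for CARS1, chr7:30594805-30594892 on the plus strand for GARS1, chr12:57488024-57488111 on the plus strand for MARS1, chr5:33440927-33441014 on the plus strand for TARS1, chr9:92293663-92293750 on the minus strand for IARS1, chr18:57621787-57621862 on the minus strand for NARS1 and chr12:32756047-32756134 on the minus strand for YARS2. Counted from the start site, with negative positions upstream, the first base of the match lay at -187 in AARS1 and at -197 in YARS2. In CARS1, GARS1, IARS1, MARS1, NARS1 and TARS1 it lay between -33 and 15. CARS1, GARS1 and TARS1 each have 2 promoters in the table, of which 1 held the match. A match describes letters in this window and was not tested as a binding site. Other motifs did not divide the classes in that way. The E-box CACGTG was found in 1 of 16 cytosolic and 3 of 14 mitochondrial promoters (8.77% of all genes), and the NRF1 motif in 3 of 16 and 3 of 14 (6.98% of all genes). None of the matches in capitals shared bases with a match of either.

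The first comparison asked whether synthetase mRNAs differed between knockdown-labelled and control libraries. No member passed the test in either direction, and in this comparison no gene of any kind did (0 of 16417 genes, 0.0%; edgeR, Benjamini-Hochberg adjusted p under 0.05). At an unadjusted p under 0.05 edgeR passed 0 members, where the whole table had 1846 genes (11.2%). DESeq2 called 258 genes and limma-voom 0, with no member among them. The fitted log2 fold change was negative for 11 and positive for 8 of the 19 cytosolic genes, with a median of -0.09, and positive for 11 and negative for 5 of the 16 mitochondrial genes, with a median of 0.07. Over all genes the median was -0.01. Both knockdown-labelled libraries lay above both controls for 10 members and below both for 1, which is PARS2, against 22.1% and 22.6% of all genes (44.7% together).

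The controls differed from each other for some of the cytosolic enzymes. When a term for the prefix was added to the comparison of the labels, 304 genes passed (1.85%), none of them a member. At an unadjusted p under 0.05 in that fit, AARS1 and SARS1 were lower (9.69% of all genes were) and CARS2 was higher (5.46% of all genes were), with adjusted p-values from edgeR of 0.275, 0.29 and 0.316. Without the unprefixed control, 10 members (and 1434 genes in all, 8.46%) passed against the single remaining control, in a fit that assumes this control varies as the other group does: AARS1, CARS1, EPRS1, GARS1, MARS1, SARS1, WARS1 and YARS1 lower and FARSA and CARS2 higher. Without the SP-prefixed control, no member passed (291 genes did, 1.72%), and the fitted log2 fold changes of these 8 lower genes turned positive. For GARS1 the value went from -1.31 without the unprefixed control to 0.53 without the SP-prefixed control, and for AARS1 from -1.14 to 0.16.

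**Figure D1:**
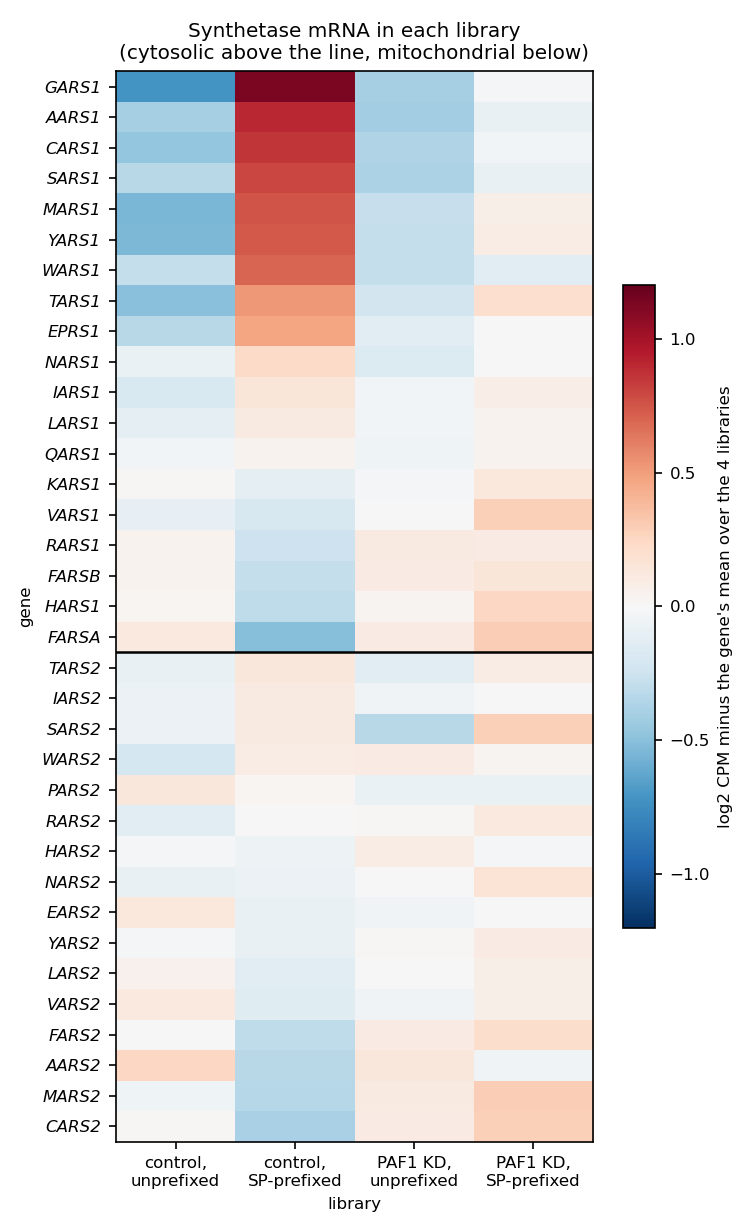
Each row is 1 synthetase gene and each column 1 library, with colour giving log2 CPM minus the mean of that gene over the 4 libraries, and genes ordered within each class by the value in the SP-prefixed control. The 9 cytosolic genes at the top are highest in the SP-prefixed control, FARSA is lowest there, and among the mitochondrial genes below the line CARS2, MARS2 and AARS2 are low there by smaller amounts.

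Part of the cytosolic genes had their highest value in the SP-prefixed control. There were 7 cytosolic members and 0 mitochondrial members at least 1.5-fold above each of the other 3 libraries, where 669 of 16417 genes (4.08%) were. In all 7 the SP-prefixed knockdown-labelled library was second. With 1 such library these are values without a test, and in RNA of whole cell pools a shift in the kinds of cells and a shift within each cell cannot be told apart. GARS1, the glycine enzyme (GRCh38 chr7:30594681-30634033, plus strand), stood at 145 CPM in the unprefixed control and 523 CPM in the SP-prefixed control, and at 181 and 237 CPM in the knockdown-labelled libraries. The SP-prefixed control was 2.21-fold above the next library and 3.60-fold above the lowest. Counting error is small at this depth, since these values rest on 3134 to 10493 counts.

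AARS1, the alanine enzyme (chr16:70252295-70289543, minus strand), was at 280 and 692 CPM in the controls, then 276 and 347 CPM in the knockdown-labelled libraries. The SP-prefixed control thus lay apart from the other 3, by 1.99-fold from the nearest. SARS1, the serine enzyme, had 108 and 238 CPM in the controls, then 106 and 129 CPM. WARS1, the tryptophan enzyme, which interferon is also known to induce, had 208 and 413 CPM in the controls, then 208 and 231 CPM. In both genes the unprefixed libraries lay close together, with a log2 difference of the knockdown-labelled library from the control of -0.04 for SARS1 and 0.0007 for WARS1.

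CARS1, the cysteine enzyme, was at 57.95 and 145 CPM in the controls, then 61.95 and 78.0 CPM in the knockdown-labelled libraries. MARS1, which charges both initiator and elongator methionine transfer RNA, was at 98.8 and 243 CPM versus 119 and 151 CPM. YARS1, the tyrosine enzyme, was at 91.8 and 221 CPM versus 109 and 142 CPM. The SP-prefixed control was 1.86-, 1.61- and 1.56-fold above the next library in these 3 genes. Of the exon bases of MARS1, 13.3% are shared with other genes, mostly ARHGAP9 on the opposite strand, and since no source used here states whether counting used strand, reads of overlapping genes cannot be told apart.

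Just outside the 1.5-fold limit were EPRS1, at 1.39-fold, and TARS1, at 1.247-fold. EPRS1 had 282 and 492 CPM in the controls, then 324 and 353 CPM. TARS1, the threonine enzyme (chr5:33440696-33469539, plus strand), had 184 and 374 CPM versus 224 and 299.8 CPM. Both were again highest in the SP-prefixed control and lowest in the unprefixed control. At a limit of 2-fold the count was 1, GARS1, where 193 genes (1.18%) were.

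In the remaining 10 cytosolic genes the SP-prefixed control was either highest by a smaller fold or the lowest library. NARS1, the asparagine enzyme, ran from 111 to 146 CPM, IARS1, the isoleucine enzyme, from 211 to 264 CPM, and LARS1, the leucine enzyme that also reports leucine to the growth regulator mTORC1, from 177 to 206 CPM. All of these were highest in the SP-prefixed control, by 1.17-, 1.05- and 1.05-fold over the next library. QARS1, the glutamine enzyme, was the steadiest, at 159 and 168 CPM in the controls, then 157 and 167 CPM in the knockdown-labelled libraries.

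In 6 of 19 cytosolic genes the SP-prefixed control was the lowest library, a share close to the 31.7% of all genes. It was the lowest in 9 of 16 mitochondrial genes, a larger share than among all genes. It was the highest in 13 of 19 cytosolic and 2 of 16 mitochondrial genes, against 31.1% of all genes. FARSA (chr19:12922479-12934037, minus strand) was at 85.2 and 55.1 CPM in the controls, then 83.7 and 95.8 CPM, and was the 1 member at least 1.5-fold below each other library, where 439 genes (2.67%) were. FARSB, which encodes the partner subunit of the same enzyme, was at 109 and 86.8 CPM versus 114 and 117 CPM. HARS1, the histidine enzyme, was at 72.3 and 57.5 CPM versus 72.7 and 84.5 CPM, with 18.3% of its exon bases shared with other genes. RARS1 for arginine, KARS1 for lysine and VARS1 for valine were lowest there too, at 0.82, 0.93 and 0.94 of the next lowest library. Both subunits of the phenylalanine enzyme thus lay on the same side.

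The second comparison set the SP-prefixed libraries against the unprefixed ones with the label kept as a term. It was chosen because the SP-prefixed control was already known from these data to differ most. Its counts therefore describe that difference and give no independent support for it. No member passed (edgeR, adjusted p under 0.05), where 30 genes (0.183%) did. At an unadjusted p under 0.05, 9 of 19 cytosolic genes were higher and 0 lower in the SP-prefixed libraries, where 5.48% of all genes were higher and 4.98% lower. They are AARS1, CARS1, EPRS1, GARS1, MARS1, SARS1, TARS1, WARS1 and YARS1. Among the 16 mitochondrial genes, 0 were higher and 1, AARS2, was lower. The smallest adjusted p among members belonged to TARS1, with a log2 fold change of 0.72 ± 0.16 (SE, edgeR, adjusted p = 0.127), followed by YARS1 at 0.82 ± 0.20 (edgeR, adjusted p = 0.152). GARS1 had the largest difference, 1.12 ± 0.28 (edgeR, adjusted p = 0.161). The counts depended on settings: 9 members, these same 9 cytosolic genes, passed with no filter on low counts (601 genes called, 1.98%), and 7 of them with lane 2 alone (263 genes called, 1.78%), but 0 with lane 1 alone (85 genes called), DESeq2 (69 genes called) or limma-voom (44 genes called).

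The 2 prefix pairs gave unlike values for these genes. Between the unprefixed libraries, the log2 difference of the knockdown-labelled library from the control was 0.32 for GARS1, 0.28 for TARS1, 0.27 for MARS1, 0.25 for YARS1 and 0.20 for EPRS1. Between the SP-prefixed libraries it was -1.14, -0.32, -0.69, -0.64 and -0.48 for the same genes. AARS1, CARS1, SARS1 and WARS1 lay between -0.04 and 0.10 in the unprefixed pair and between -0.99 and -0.84 in the SP-prefixed pair. The pairs were not assigned by the labels, each has 1 library a side, and the difference between them was not tested.

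**Figure D2:**
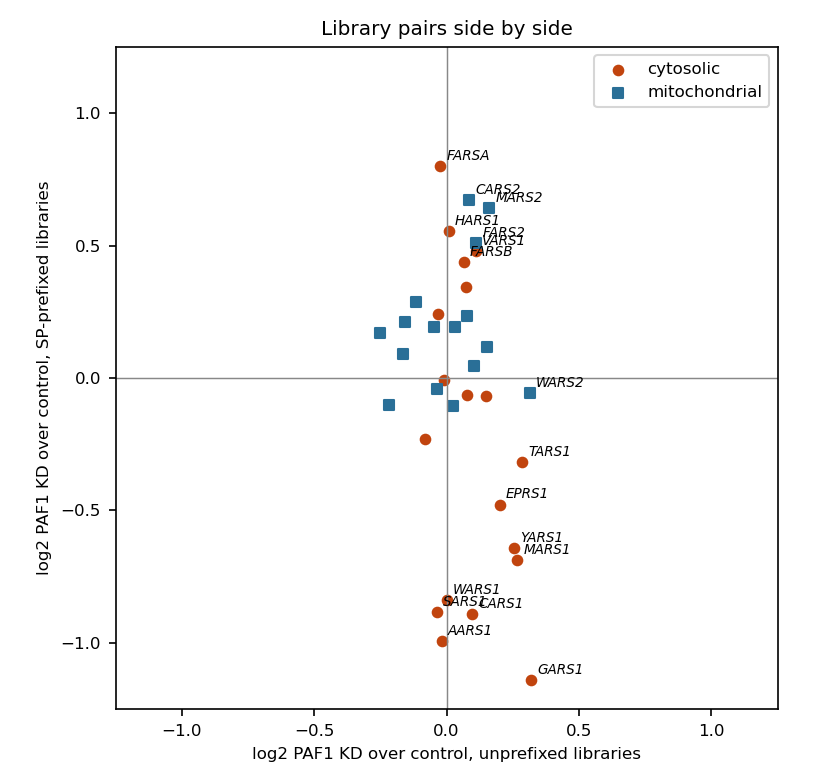
Each point is 1 synthetase gene, with the log2 difference of the knockdown-labelled library (PAF1 KD) from the control among unprefixed libraries on the x axis and among SP-prefixed libraries on the y axis, circles for cytosolic and squares for mitochondrial genes. The points spread from -1.14 for GARS1 to 0.80 for FARSA on the y axis and stay between -0.25 and 0.32 on the x axis.

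The highest library exceeded the lowest by a median of 1.196-fold among mitochondrial genes and 1.74-fold among cytosolic genes. It did so by at least 1.5-fold in 3 of 16 and 10 of 19. No such share over all genes is given here, so whether either count is unusual cannot be read from it. The 3 mitochondrial genes are CARS2, at 1.59-fold, MARS2, at 1.56-fold, and SARS2, at 1.53-fold on few counts. IARS2, the isoleucine enzyme (chr1:220094102-220148041, plus strand), was the most abundant of the mitochondrial class, at 231 and 262 CPM in the controls, then 235 and 244 CPM. CARS2, the cysteine enzyme, which is also known to form cysteine persulfides, was at 128 and 96.8 CPM versus 136 and 154 CPM. VARS2 for valine was at 128 and 107 CPM versus 115 and 124 CPM, although 22.0% of its exon bases are shared with GTF2H4 on the same strand. CARS2 and VARS2 were lowest in the SP-prefixed control and IARS2 highest, by 1.08-fold over the next library.

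AARS2, the alanine enzyme, was at 36.5 and 24.5 CPM in the controls, then 33.8 and 29.9 CPM. It was lower in both SP-prefixed libraries, with a log2 difference between prefixes of -0.38 ± 0.17 (SE, edgeR, adjusted p = 0.472), which did not pass. MARS2 for methionine was at 16.2 and 13.3 CPM versus 18.1 and 20.7 CPM, and FARS2 for phenylalanine at 7.40 and 6.03 CPM versus 7.99 and 8.59 CPM. Like CARS2 and AARS2, both were lowest in the SP-prefixed control.

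Among the 10 others, EARS2 for glutamate ran from 49.4 to 57.4 CPM, YARS2 for tyrosine from 38.4 to 43.8 CPM, TARS2 for threonine from 34.7 to 41.7 CPM, RARS2 for arginine from 30.1 to 35.9 CPM and NARS2 for asparagine from 29.5 to 35.1 CPM. LARS2 for leucine ran from 28.6 to 32.7 CPM, HARS2 for histidine from 25.9 to 28.8 CPM, WARS2 for tryptophan from 13.8 to 17.2 CPM and PARS2 for proline from 5.04 to 5.86 CPM. None of these 9 had a prefix or label difference with an unadjusted p under 0.05. SARS2 for serine was at 1.32 and 1.495 CPM versus 1.10 and 1.69 CPM, on 19 to 32 counts, with 57.0% of its exon bases shared with other genes, so its level is uncertain.

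Compared per length, the cytosolic genes were more abundant as a class in every library. The median level over genes was 32.3 and 35.7 CPM per kb of exon in the controls and 33.8 and 35.6 CPM per kb in the knockdown-labelled libraries, against 8.62, 8.10, 8.49 and 8.48 CPM per kb for the mitochondrial genes. The class difference was 1.91, 2.14, 1.99 and 2.07 on the log2 scale, a range of 3.75- to 4.41-fold. Classes overlap, since IARS2 at 55.4 to 62.9 CPM per kb exceeded most cytosolic genes and CARS1 at 5.77 to 14.4 CPM per kb lay among the mitochondrial ones. These lengths are the summed exons in the deposited table, which come to 10037 bases for CARS1 and 10460 for CARS2 and lower their level per kb. Summed over genes, the cytosolic class took 3145, 5014, 3361 and 3914 CPM and the mitochondrial class 819.7, 780.6, 820.0 and 871.8 CPM.

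**Figure D3:**
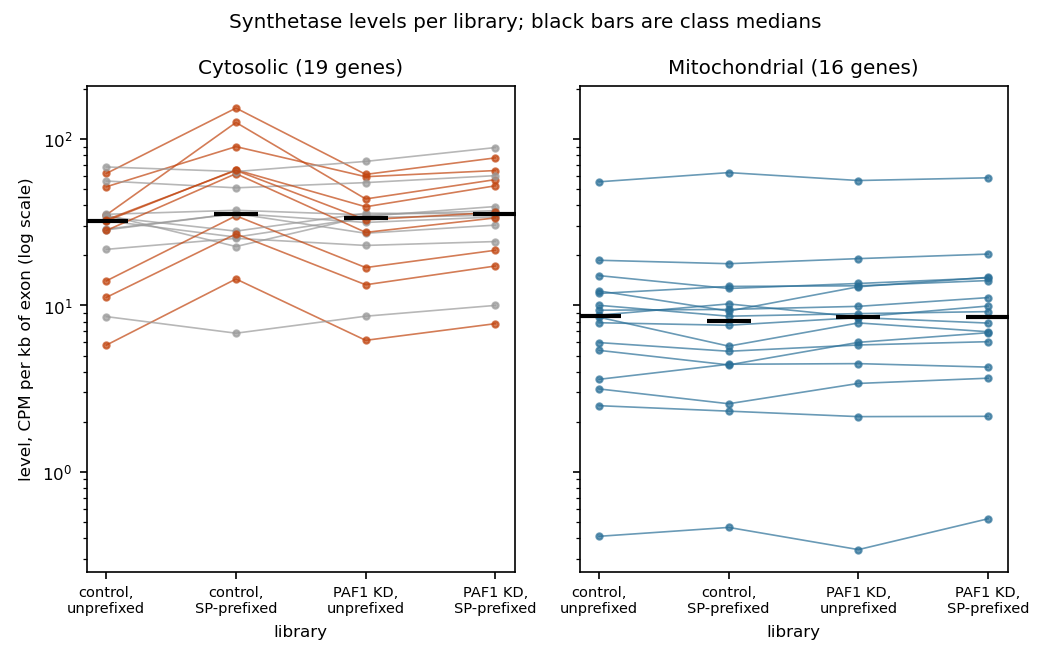
Each line joins the level of 1 synthetase gene in CPM per kb of exon (log scale) over the 4 libraries, with the 9 cytosolic genes highest in the SP-prefixed control relative to their own mean in orange and the other cytosolic genes in grey on the left, and mitochondrial genes on the right. Black bars are class medians, 32.3 to 35.7 CPM per kb for cytosolic and 8.10 to 8.62 CPM per kb for mitochondrial genes, while single cytosolic genes reach 154 CPM per kb in the SP-prefixed control.

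The difference between the controls was then set side by side for enzymes of the same amino acid. In 17 pairings of a cytosolic with a mitochondrial gene, in which EPRS1 and FARS2 each occur 2 times, the log2 difference of the SP-prefixed from the unprefixed control was larger for the cytosolic gene in 13 and smaller in 4, with a median difference between partners of 0.69. It was 1.31 for AARS1 and -0.58 for AARS2, 1.32 for CARS1 and -0.40 for CARS2, and 1.30 for MARS1 and -0.29 for MARS2. For isoleucine and valine the partners lay 0.14 and 0.17 apart. The reverse order was found for arginine, histidine and both subunits of the phenylalanine enzyme. Of the exon bases of HARS2, 21.8% are shared with other genes, and 592 bases with HARS1 on the opposite strand. Whether counting used strand is not stated, so the histidine partners may not have been fully counted apart. In all, 6 cytosolic genes lay below 0 between the controls.

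**Figure D4:**
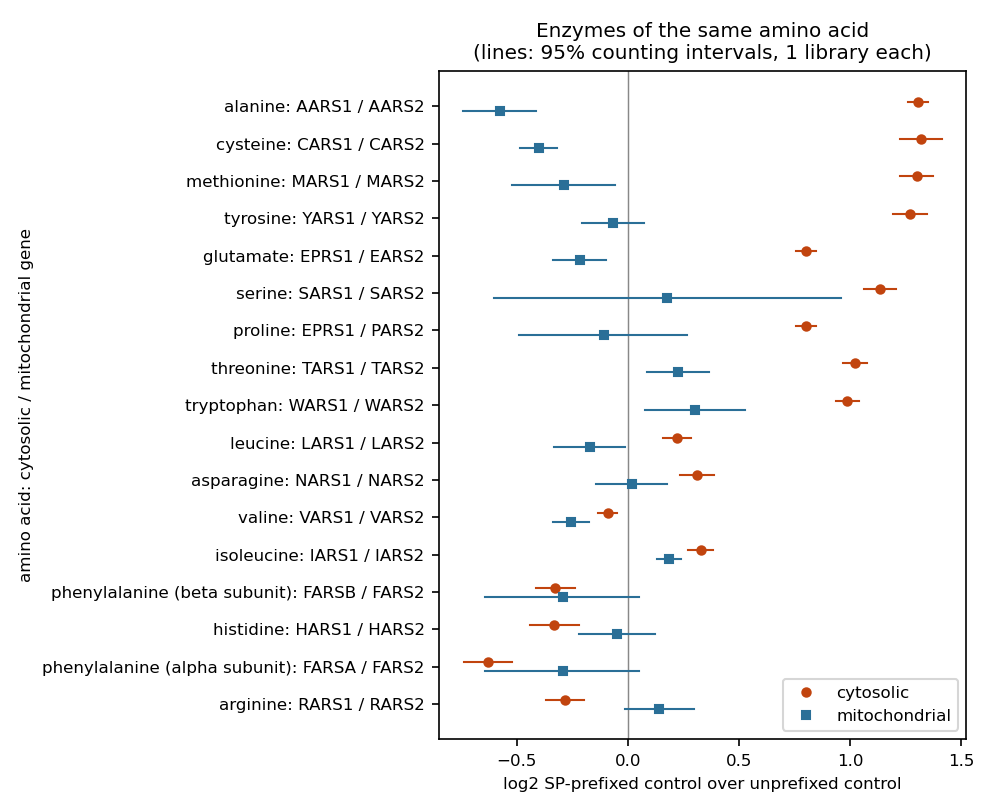
For each amino acid, the log2 difference of the SP-prefixed from the unprefixed control is shown for the cytosolic gene (circle) and the mitochondrial gene (square), with lines for 95% counting intervals of these libraries, which leave out variation between cultures. From alanine at the top, with partners 1.88 apart, the order runs down to arginine, where the mitochondrial gene is higher by 0.43.

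Structural groups of the cytosolic enzymes were described in the same way. In the multisynthetase complex, a cytosolic assembly that holds the enzymes for several amino acids, EPRS1 and MARS1 were among the genes with an unadjusted p under 0.05 between prefixes, and IARS1, KARS1, LARS1, QARS1 and RARS1 were not. Outside the complex 7 of 12 were, all higher in the SP-prefixed libraries, where 5.48% of all genes were higher and 4.98% lower. Together these are the 9 cytosolic genes already named for the second comparison, and a difference by complex or catalytic class was not tested. The median log2 difference between the controls was 0.22 inside and 1.00 outside the complex, against -0.01 for all genes. The 3 scaffold proteins of the complex had no member that passed: AIMP1 was at 44.9 and 44.8 CPM in the controls, then 51.2 and 50.3 CPM, AIMP2 at 26.2 and 21.7 CPM versus 27.4 and 30.0 CPM, and EEF1E1 at 8.99 and 9.37 CPM versus 10.5 and 9.33 CPM. The catalytic classes, which differ in the fold of the active site, had like medians, 0.33 for class I and 0.31 for class II, with 4 of 9 genes each with an unadjusted p under 0.05, EPRS1 left out because it joins both.

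Genes of the GCN2 and ATF4 pathway were read from lists of their known members. ATF4 mRNA was at 183 and 597 CPM in the controls, then 226 and 303 CPM in the knockdown-labelled libraries, the same order of libraries as GARS1. Its log2 difference between prefixes was 1.07 ± 0.25 (SE, edgeR, adjusted p = 0.138) and did not pass. PPP1R15B, a phosphatase subunit that reverses phosphorylation of eIF2, was at 95.5 and 163 CPM versus 118 and 123 CPM. Of the 6 genes of the GCN2 arm, 0 passed. At an unadjusted p under 0.05 in edgeR, 2 were higher, ATF4 and PPP1R15B, where 5.48% of all genes were. The arm did not move as 1: the SP-prefixed control was the highest library for 3 of the 6 and the lowest for 2, against 31.1% and 31.7% of all genes.

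Among the ATF4 target genes outside the synthetases, 29 of 31 were tested. In the SP-prefixed control 24 were at least 1.5-fold above each other library, where 4.08% of all genes were. That control was the lowest library for 2 of the 29, and for 1 by at least 1.5-fold (31.7% and 2.67% of all genes). Between prefixes 1 of 29 passed, higher, where 0.183% of all genes passed in either direction. At an unadjusted p under 0.05 in edgeR, 25 of 29 were higher, where 5.48% of all genes were. The median log2 difference of the 29 was 1.08. PHGDH, the first enzyme of serine synthesis, was the 1 that passed, at 48.5 and 222 CPM in the controls, then 46.8 and 92.3 CPM (log2 difference 1.59 ± 0.25 SE, edgeR, adjusted p = 0.0443). That call was lost with the scaling of DESeq2 in edgeR (adjusted p = 0.0638) and with DESeq2 (adjusted p = 0.36).

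CTH, an enzyme that makes cysteine, was at 7.85 and 52.7 CPM in the controls, then 5.15 and 11.0 CPM. CHAC1, which degrades glutathione, was at 6.30 and 87.8 CPM versus 5.10 and 12.6 CPM. TRIB3, a pseudokinase that ATF4 is known to induce, was at 23.8 and 247 CPM versus 19.3 and 41.4 CPM. In each the SP-prefixed control was at least 4.79-fold above the next library, more than any synthetase. Between the labels, 0 of 29 passed, where 0.0% of all genes did, with a median log2 fold change of -0.96. With the prefix term 2 passed, where 1.85% of all genes did in either direction. They are CTH and SLC1A4, an amino acid transporter named here because of that call. Both were lower in the knockdown-labelled libraries (edgeR, adjusted p = 0.0472 for each).

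Genes that make or move transfer RNA did not follow the synthetases as a list. Of 19 genes of transfer RNA export and maturation, 0 passed in either comparison, 14 were lowest in the SP-prefixed control and 1 was highest, against 31.7% and 31.1% of all genes. The 1 that was highest is XPOT, the exporter of transfer RNA from the nucleus, at 108 and 238 CPM in the controls, then 131 and 155 CPM (log2 difference between prefixes 0.70 ± 0.20 SE, edgeR, adjusted p = 0.23). METTL1, which methylates guanine in transfer RNA, was at 12.8 and 6.23 CPM versus 14.3 and 11.6 CPM. NSUN2, a cytosine methyltransferase of transfer RNA, was at 168 and 134 CPM in the controls, then 211 CPM in both knockdown-labelled libraries, a log2 fold change of 0.48 ± 0.15 (SE, edgeR, adjusted p = 0.323).

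**Figure D5:**
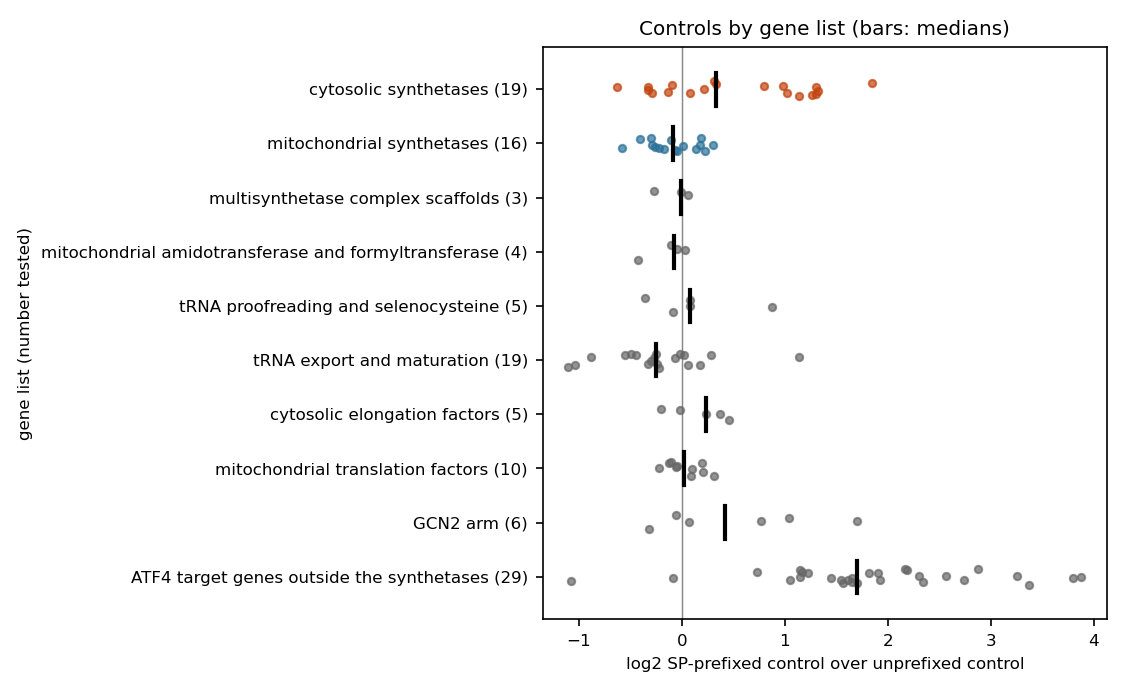
Each point is 1 tested gene, placed by its log2 difference of the SP-prefixed from the unprefixed control, with genes grouped by list and black bars at list medians. The medians are 0.33 for cytosolic and -0.09 for mitochondrial synthetases, 1.70 for ATF4 target genes and -0.25 for transfer RNA export and maturation.

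The partners of the synthetases in translation passed in neither comparison. Of 5 cytosolic elongation factors tested, EEF2, which moves the ribosome along the message, was at 2023 and 2783 CPM in the controls, then 2135 and 2432 CPM (log2 difference between prefixes 0.32 ± 0.13 SE, edgeR, adjusted p = 0.397). EEF1G was listed at 0 in all libraries, and 99.9% of its exon bases are shared with another annotated gene. Of 10 mitochondrial translation factors, MTIF3, an initiation factor, was at 11.9 and 11.5 CPM versus 8.16 and 7.80 CPM, a log2 fold change between labels of -0.55 ± 0.18 (SE, edgeR, adjusted p = 0.348). The 4 genes of the mitochondrial amidotransferase and formyltransferase and the 5 genes of proofreading and selenocysteine had no unadjusted p under 0.05 in either comparison.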

How the data were processed

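RNA of SW1990 cells was made into TruSeq libraries, per the labels' protocols. The authors deposited raw whole-number counts per gene and lane, and FastQC, HISAT2 and featureCounts are named without versions in the submitters' processing notes, as are hg19 and GRCh38. All 35 members overlapped their GENCODE release 29 span on GRCh38. Lanes were summed into 4 libraries, grouped from the titles through the column names, in which PD2 is a RefSeq synonym of PAF1. Gene symbols were found for 56321 of 60483 identifiers.

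The test was the one of edgeR 4.0.16 under R 4.3.3 (quasi-likelihood F test, TMM, default expression filter with minimum count 10, Benjamini-Hochberg at 0.05 over 16417 genes), without covariates for the comparison of labels (2 residual degrees of freedom) and with the label as a term for that of prefixes (1 residual degree of freedom). Standard errors came from the F statistic. Single library pairs are log2 ratios with a prior count of 0.5 and 95% intervals, which cover counting error only. DESeq2 1.42.0, limma-voom (limma 3.58.1), other scalings, no filter, single lanes and left-out libraries were alternatives. The scripts were tested on simulated data. Python 3.11.15, pandas 2.3.3, numpy 2.4.6, scipy 1.17.1 and matplotlib 3.10.9 made tables and figures.

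Members, lists, the limit of 1.5-fold and the comparison of prefixes were chosen with earlier results of these data known. All members are named, with the 3 scaffold genes, EEF1G, SLC1A4 and the markers EPCAM, COL1A1 and CDH5. From each list come up to 4 genes with the smallest unadjusted p, narrowed after values were seen to those under 0.05. For 1 listed gene that this rule would name, the values are not reported here.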

Additional observations from a re-analysis of the deposited data

Results flagged for a closer look

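For 12 of the genes named, the knockdown-labelled library lay on one side of the control in the unprefixed pair and on the opposite side in the SP-prefixed pair, with a 95% counting interval that left out 0 in both pairs. Other genes had opposite signs with an interval that held 0 in at least 1 pair. No such share over all genes is given here, so whether 12 is unusual cannot be read from it. The genes outside the synthetases had been named for a small unadjusted p between labels or prefixes. Each pair has 1 library a side, the labels do not assign the pairs, and the difference was not tested. The log2 difference of the SP-prefixed pair minus that of the unprefixed pair was -1.46 for GARS1, -0.95 for MARS1, -0.90 for YARS1, -0.68 for EPRS1 and -0.60 for TARS1. It was -0.22 for IARS1 and -0.14 for LARS1, whose values lay near 0 in both pairs. VARS2 was the 1 mitochondrial gene among the 12, at 0.37, in the opposite direction. Outside the synthetases it was -1.28 for ATF4, -0.89 for XPOT, -0.70 for PPP1R15B and -0.27 for EEF2. In the SP-prefixed control, 24 of 29 ATF4 target genes were also at least 1.5-fold above each other library, where 4.08% of all genes were.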

How the results depend on the processing

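No paired analysis was possible because the count columns carry no library number from the titles. A term for the column-name prefix was fitted in its place. Between the labels, no member was called with the scaling of DESeq2, library size alone, DESeq2, limma-voom, each lane alone and the prefix term. Exceptions were 3 members called with no filter on low counts (AARS1, GARS1 and SARS1, all lower, among 902 genes called, 2.97%) and a range of 0 to 10 members when each library was left out in turn, with 1434 genes called (8.46%) where the 10 were. Between prefixes, 9 members were called with no filter (601 genes, 1.98%) and 7 with lane 2 alone (263 genes, 1.78%). The causes were not tested. The count of cytosolic genes at least 1.5-fold above each other library stayed at 7 with library size alone and with each lane alone, and was 1 at a limit of 2-fold. These settings of that count were added after the values were seen. The class difference on the log2 scale per kb was 2.57 in the SP-prefixed control and 2.15 in the SP-prefixed knockdown-labelled library when means replaced medians, and 1.92 in the unprefixed knockdown-labelled library over amino acids with both genes. Values near 0 turned their sign. Between labels the values were, with library size as the only scaling -0.0022 for LARS1, with no filter 0.013 for QARS1 and 0.016 for SARS2, with lane 1 alone 0.012 for QARS1, 0.013 for EARS2 and 0.0059 for TARS2, with lane 2 alone -0.0066 for LARS1 and 0.015 for SARS2. Between prefixes the values were, with library size as the only scaling -0.027 for KARS1 and -0.018 for YARS2, with lane 1 alone 0.0023 for HARS2 and -0.071 for YARS2, with lane 2 alone -0.056 for KARS1, 0.0057 for MARS2, 0.064 for PARS2 and 0.15 for MTIF3. Leaving out each library in turn turned the sign of the log2 fold change between labels for 29 genes, 21 of them members. The range was -1.14 to 0.16 for AARS1, -1.03 to 0.27 for CARS1, -0.52 to 0.27 for EPRS1, -1.31 to 0.53 for GARS1, -0.11 to 0.21 for IARS1, -0.089 to 0.12 for LARS1, -0.84 to 0.45 for MARS1 and -0.30 to 0.0015 for NARS1. The range was -0.050 to 0.039 for QARS1, -1.01 to 0.11 for SARS1, -0.50 to 0.51 for TARS1, -0.90 to 0.078 for WARS1, -0.80 to 0.45 for YARS1, -0.20 to 0.39 for AARS2, -0.14 to 0.085 for EARS2 and -0.12 to 0.054 for IARS2. The range was -0.013 to 0.17 for LARS2, -0.35 to 0.27 for SARS2, -0.15 to 0.079 for TARS2, -0.10 to 0.17 for VARS2, -0.0088 to 0.28 for WARS2, -1.16 to 0.53 for ATF4, -3.29 to 0.50 for CHAC1 and -2.68 to 0.051 for CTH. The range was -0.27 to 0.18 for EEF2, -1.66 to 0.52 for PHGDH, -0.42 to 0.34 for PPP1R15B, -3.00 to 0.36 for TRIB3 and -0.72 to 0.41 for XPOT. Depth limits SARS2, PARS2 and FARS2, the members with the fewest counts, and 2 libraries per group limit every test. What the prefix marks is not stated, and what sets the SP-prefixed control apart was not tested.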
